A study of Drosophila melanogaster with 18 samples.

Results

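The genes described here encode the machinery of mitosis and the kinetochore in Drosophila melanogaster: mitotic cyclins, kinases and phosphatases, the spindle checkpoint, activators of the anaphase-promoting complex, spindle motors, cytokinesis proteins, kinetochore and centromere proteins, and condensin. The list names 41 genes, chosen by function. A gene was measured where a probe set of the array carried its symbol and no other, and the brightest such probe set was used. By this rule 31 of the 41 genes were measured, of 11982 genes with a probe set of 1 symbol. No probe set is named here for CycA, Cdk1, stg, polo, aurA, BubR1, Klp3A, asp, pav or sti, which were not analysed, so several central regulators of mitotic entry are missing from what follows. All 31 measured genes lay above an intensity of 32, the floor used here for weak signal, on all 18 arrays.

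Total RNA from 2 cell lines, R7 and R3, was hybridised to Affymetrix 3' expression arrays as the cultures were passaged and became immortal lines, with 9 arrays per line. The R7 groups were late (P16, P17 and P19), intermediate (P7 and P8), a single array at P4, and early (P2 in replicates rep1 and rep2, and P3), where P is the passage number. The R3 groups were late (P16, P17 and P19), intermediate (P5, P6, P7 and P8) and early (P2 in replicates rep1 and rep2). P4 lies in the passage range that the study gives to both early and intermediate stages and was kept apart. Both lines were grown in Schneider's medium with fetal bovine serum and antibiotics, and the labels give no genotype, treatment or tissue of origin beyond the name of the line. Each line is 1 culture followed over time, so passages stand in for replicates and the p-values measure how far those arrays scatter, with no independent culture behind them.

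Mitosis is started by cyclin-dependent kinase bound to mitotic cyclins. The spindle checkpoint at kinetochores, the protein platforms by which chromosomes hold spindle microtubules, then delays the anaphase-promoting complex until every chromosome is attached. That complex marks cyclins and securin for destruction, after which sister chromatids separate and the cell divides. Transcripts of many of these genes are made mainly in cells that are preparing to divide, so their level in a culture is often read with its proliferation. These were bulk cultures, in which fewer cells expressing a gene and less of its RNA per cell cannot be told apart.

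A pair of R3 arrays stood apart from their stage. Over the 10200 probe sets tested, the array labelled R3 P19 correlated best with R3 P2 rep1 (r = 0.994), whose own nearest array was R3 P19. The array labelled R3 P2 rep2 correlated best with R3 P6 (r = 0.990), while the R3 P2 replicates correlated with each other at r = 0.951. The R7 P2 replicates, by contrast, were each other's nearest arrays (r = 0.997). Results are therefore given with all 18 arrays and, where they changed, also without R3 P2 rep2 and R3 P19. That leaves R3 early with 1 array, P2 rep1, which is assumed to vary like the other groups. This choice keeps P2 rep1, which correlated with R3 P6 at r = 0.955, and drops P2 rep2. Apart from each other, R3 P2 rep1 and R3 P19 correlated best within R3 with P6 (r = 0.955 and 0.952). Both were nearer to R7 P2 rep1 (r = 0.977 and 0.972), with which R3 P2 rep2 correlated at 0.937. The kept early array is thus 1 of the pair that differed from the other R3 arrays. Nothing in the labels favours this choice, and a fit without P2 rep1 and P19 was not run. Array medians lay between 23.2 and 30.4 in intensity, and 44.1% to 48.9% of probe sets lay above the floor. In R7 the medians followed the stage, with 27.7 to 30.4 in early and 23.2 to 26.3 in late arrays. The number of arrays limits the precision of every comparison.

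Between late and early passages of R7, 3 of the 31 mitotic genes rose and 0 fell: mad2, Klp61F and tacc. This was 9.68% of the members, against 19.9% of all tested probe sets called in either direction at a limma adjusted p under 0.05 (8.75% higher and 11.2% lower). The share of members called higher was therefore near the background share of higher calls. Late minus early differences in R7 were positive for 22 of the 31, with a median of 0.13 (log2), against -0.03 for all tested probe sets. In R3, 0 of 31 members were called by limma between late and early passages, and 0 had an unadjusted p under 0.05. The background in R3 was 0% of 10200 probe sets called, with 613 at an unadjusted p under 0.05. The members' median difference in R3 was -0.04, with 12 positive and 19 negative, against -0.02 for all tested probe sets. The 95% intervals of the R3 differences reached -0.71 (scra) at the low end and 0.59 (CycB) at the high end, and those of the other members were narrower. Without R3 P2 rep2 and R3 P19, the R3 background was 10.1% of 10065 probe sets for late against early arrays, 9.54% for intermediate against early and 2.35% for the slope on passage. Of the members, CycB was called in the first 2 of these fits, as described with its values, and 0 in the slope.

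**Figure D1:**
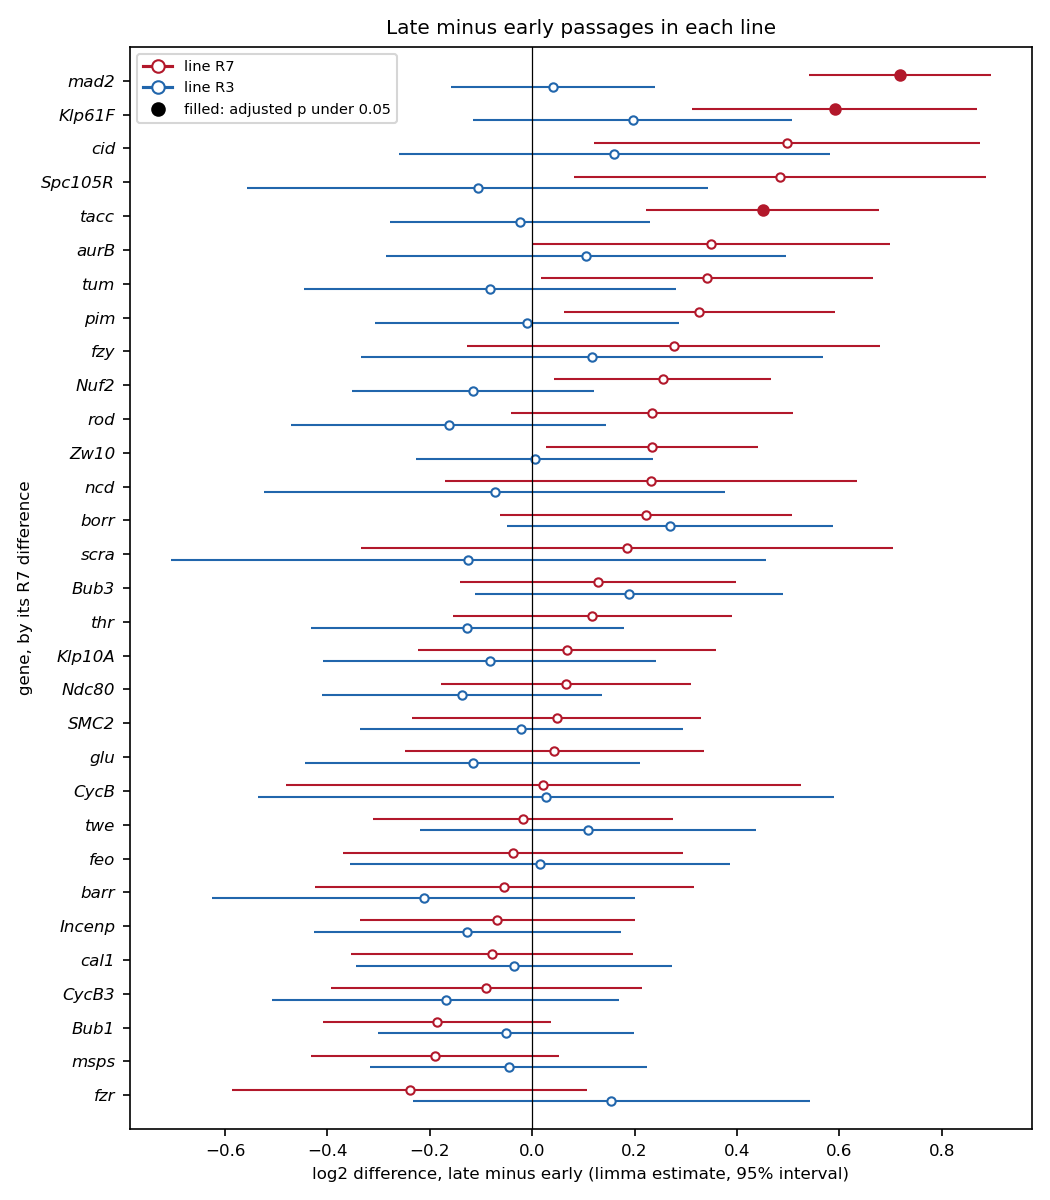
Late minus early difference of the 31 genes in each line, in log2 units on the horizontal axis, with limma's 95% interval; red is R7, blue is R3, and filled points passed the adjusted p threshold. Only mad2, Klp61F and tacc in R7 are filled, and the R3 points lie between -0.21 (barr) and 0.27 (borr).

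Scaling changed how many members passed. Quantile normalization gave a members' R7 median of 0.22, and setting all array medians equal gave 0.37, where the median of all probe sets was itself shifted to 0.15. Under either scaling 8 members were called higher: mad2, Zw10, pim, Klp61F, tacc, Nuf2, Spc105R and cid. The background of higher calls also grew, to 15.4% of all probe sets under quantile normalization and 17.1% with equal medians, against 8.75% as deposited. Without R3 P2 rep2 and R3 P19, whose spread enters the shared error estimate, 7 members were called in R7: mad2, Zw10, Klp61F, tacc, tum, Spc105R and cid. In that fit 29.7% of all probe sets were called and 13.2% were higher. Without R3 P19 alone there were 6 members, the same genes without tum (background 25.7%, with 11.5% higher). With P4 counted as early there were 5, mad2, Klp61F, tacc, Nuf2 and cid (background 17.3%, with 8.85% higher).

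Of the spindle checkpoint genes, mad2, whose product binds and inhibits the activator of the anaphase-promoting complex, had the largest late minus early difference in R7. In R7, mad2 had an intensity of 583 at P2 rep1, 621 at P2 rep2, 623 at P3, 587 at P4, 765 at P7, 848 at P8, 973 at P16, 961 at P17 and 1074 at P19. Every intermediate R7 array lay above every early one and every late array above every intermediate one. In R3 the values were 587 at P2 rep1, 718 at P2 rep2, 676 at P5, 727 at P6, 710 at P7, 716 at P8, 659 at P16, 710 at P17 and 636 at P19. The R3 stages overlapped, and all 9 R3 arrays lay below the lowest R7 array from P7 on. In R7, mad2 averaged 1003 ± 62.3 in late and 609 ± 22.5 in early arrays (SD, n = 3 each), 1.65-fold higher (log2 0.72 ± 0.08 SE, limma adjusted p = 0.000106). In R3 it averaged 668 ± 37.5 in late (n = 3) and 653 ± 92.9 in early arrays (n = 2), a log2 difference of 0.04 with a 95% interval of -0.16 to 0.24.

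**Figure D2:**
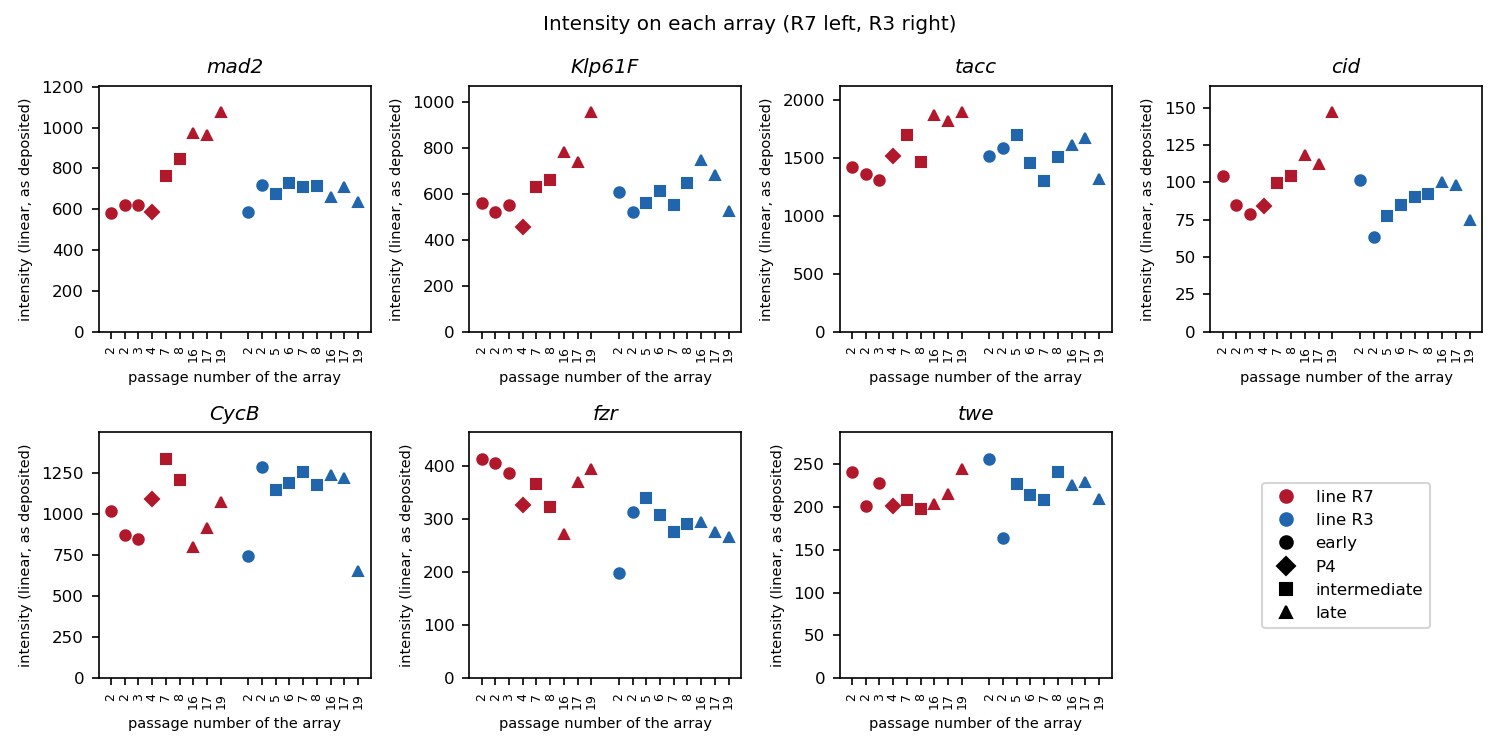
Intensity on each of the 18 arrays (vertical axes, linear, from 0) of the 4 genes called in any comparison and of CycB, fzr and twe, with the passage number of the array on the horizontal axes. Red points are R7 and blue points R3, and symbols mark the stage; the R7 points of mad2 climb to 1074 at P19 while its R3 points stay between 587 and 727.

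The other 4 measured checkpoint genes were not called between late and early passages of either line. Bub3, the partner that carries checkpoint kinases to kinetochores, averaged 1333 ± 117 in R7 late and 1219 ± 85.7 in R7 early arrays. Its log2 difference was 0.13 in R7 and 0.19 in R3. The genes rod and Zw10, 2 subunits of the complex that recruits dynein and Mad proteins to kinetochores, both had an R7 difference of 0.23 (adjusted p = 0.227 for rod and 0.104 for Zw10). The late and early R7 arrays of Zw10 did not overlap, with 297 ± 20.5 in late and 252 ± 17.8 in early arrays. Bub1, a checkpoint kinase, went the other way: it averaged 233 ± 15.9 in R7 late and 265 ± 9.41 in R7 early arrays, again without overlap, a log2 difference of -0.19 (adjusted p = 0.237).

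Among the spindle motors and microtubule proteins, Klp61F and tacc rose in late R7. Klp61F encodes the kinesin that slides antiparallel microtubules and pushes spindle poles apart. Its R7 intensities were 561 at P2 rep1, 522 at P2 rep2, 552 at P3, 454 at P4, 629 at P7, 660 at P8, 781 at P16, 740 at P17 and 955 at P19. In R3, Klp61F measured 607 at P2 rep1, 521 at P2 rep2, 559 at P5, 614 at P6, 552 at P7, 646 at P8, 746 at P16, 683 at P17 and 524 at P19. The R7 stages did not overlap, P4 was the lowest array of all, and in R3 the arrays at P16 and P17 were the highest while P19 fell within the range of the earlier arrays. In R7 the means were 825 ± 114 in late and 545 ± 20.6 in early arrays, 1.51-fold higher (log2 0.59 ± 0.13 SE, limma adjusted p = 0.00773). In R3 the log2 difference was 0.20 ± 0.14 (adjusted p = 0.904), the second highest of the members in that line.

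The gene tacc encodes a centrosomal protein that works with the microtubule polymerase Msps. Like fzr, Klp10A and barr, it was read by a probe set of the kind that may match more than 1 transcript (its name ends in s_at). In R7 its intensity was 1419 at P2 rep1, 1361 at P2 rep2, 1306 at P3, 1518 at P4, 1693 at P7, 1467 at P8, 1871 at P16, 1815 at P17 and 1893 at P19. In R3 the values of tacc were 1517 at P2 rep1, 1584 at P2 rep2, 1699 at P5, 1459 at P6, 1302 at P7, 1504 at P8, 1615 at P16, 1667 at P17 and 1315 at P19. The 3 late R7 arrays were the highest of all 18, and the R3 stages overlapped throughout. The R7 means were 1859 ± 39.9 in late and 1362 ± 56.5 in early arrays, 1.37-fold higher (log2 0.45 ± 0.11 SE, limma adjusted p = 0.0112), and in R3 the difference was -0.02 ± 0.12. The partner gene msps averaged 1250 ± 56.0 in R7 late and 1428 ± 110 in R7 early arrays, without overlap, a difference of -0.19 (adjusted p = 0.266). The minus-end-directed kinesin gene ncd had an R7 difference of 0.23 (adjusted p = 0.425), and Klp10A, a kinesin that depolymerises microtubules, one of 0.07 (adjusted p = 0.776).

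The 5 kinetochore and centromere genes had R7 differences between -0.08 (cal1) and 0.50 (cid), of which 0 were called between late and early. At an unadjusted p under 0.05 there were 9 members in R7, and cid, Spc105R and Nuf2 were 3 of them. cid encodes the histone variant that replaces histone H3 in centromeric chromatin and on which the kinetochore is built. Its R7 intensities were 105 at P2 rep1, 84.7 at P2 rep2, 78.6 at P3, 84.4 at P4, 99.97 at P7, 104 at P8, 119 at P16, 112 at P17 and 147 at P19. The R3 intensities of cid were 102 at P2 rep1, 63.8 at P2 rep2, 77.7 at P5, 84.7 at P6, 90.2 at P7, 92.2 at P8, 100.02 at P16, 98.1 at P17 and 74.8 at P19. All late R7 arrays lay above all early ones, P19 stood above the rest, and the R3 P2 replicates were the highest and lowest R3 arrays.

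cid averaged 126 ± 18.5 in R7 late and 89.3 ± 13.5 in R7 early arrays, 1.41-fold higher (log2 0.50 ± 0.17 SE), with a limma adjusted p of 0.0619. It passed the threshold in the fit of 1 slope per line on log2 of the passage number, where it gained 0.17 ± 0.06 per doubling of the passage number in R7 (adjusted p = 0.0414). That call was lost in 8 of the 18 fits that left out 1 array, with an adjusted p of 0.191 without R7 P19. Spc105R, the outer kinetochore scaffold for checkpoint proteins, averaged 589 ± 79.3 in R7 late and 428 ± 109 in R7 early arrays, a log2 difference of 0.48 ± 0.19 (adjusted p = 0.0857). Nuf2, of the complex that binds microtubules directly, averaged 412 ± 57.2 in R7 late and 344 ± 17.0 in R7 early arrays (0.25, adjusted p = 0.0854). Its partner Ndc80 had 0.07, and cal1, the chaperone that loads Cid onto centromeres, had -0.08. In R3 the late arrays of Nuf2 and Ndc80 all lay below the early arrays, with differences of -0.12 and -0.14.

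In that slope fit 4 of 31 members rose in R7 (12.9%, against 8.56% of all probe sets called higher, 11% lower and 19.6% in either direction) and 0 fell. The other 3 were mad2 (0.26 ± 0.03 per doubling, adjusted p = 0.000115), Klp61F (0.22 ± 0.05, 0.00529) and tacc (0.14 ± 0.03, 0.00896). The most negative R7 slopes were -0.07 for fzr, -0.07 for Bub1 and -0.06 for msps, with adjusted p of 0.402, 0.228 and 0.247. In R3 0 of 31 slopes were called by limma (background 0%). At an unadjusted p under 0.05 there were 0 members, beside 582 of the 10200 probe sets. The R3 slopes ran from -0.07 (barr) to 0.07 (borr), with Klp61F and Bub3 at 0.06, CycB3 at -0.06 and scra at -0.05.

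The mitotic cyclin genes were not called between late and early passages of either line with all arrays, and CycB had the largest SD of the members over the arrays (0.31, log2, line means subtracted). CycB encodes the B-type cyclin that drives Cdk1 at entry into mitosis. Its R7 intensities were 1019 at P2 rep1, 873 at P2 rep2, 851 at P3, 1095 at P4, 1337 at P7, 1206 at P8, 803 at P16, 918 at P17 and 1075 at P19. In R3, CycB measured 745 at P2 rep1, 1290 at P2 rep2, 1145 at P5, 1188 at P6, 1256 at P7, 1178 at P8, 1240 at P16, 1223 at P17 and 657 at P19. R7 was highest at P7 and P8, above all its early and late arrays. In R3 the arrays labelled P2 rep1 and P19 were far below the other 7, which spanned 1145 to 1290.

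With all arrays the CycB difference was 0.02 ± 0.23 in R7 and 0.03 ± 0.26 in R3, late minus early. Without R3 P2 rep2 and R3 P19, CycB was called in 5 comparisons, in which 8.86% to 11.2% of all tested probe sets were called. In R3 the outcome depends on which arrays were left out. The kept early array P2 rep1 was at 745, against 1290 at P2 rep2 and 657 at P19. Compared with that 1 remaining early array, CycB was then higher in late (0.73 ± 0.16) and in intermediate arrays (0.68 ± 0.14). In R7 the differences of CycB were then 0.48 ± 0.12 for intermediate minus early and -0.46 ± 0.12 for late minus intermediate. With all arrays these R7 differences were the same size and were not called. The R3 arrays left out were the highest and lowest of R3 for CycB, and their spread enters the shared error estimate. R7 late minus R3 late was -0.41 ± 0.12 without them and -0.11, not called, with all arrays. CycB3, a B-type cyclin that acts at anaphase, had differences of -0.09 in R7 and -0.17 in R3 (adjusted p = 0.934 in R3).

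The activators of the anaphase-promoting complex are fzy, which acts up to anaphase, and fzr, which takes over at mitotic exit and in G1. In R7 the intensity of fzr was 414 at P2 rep1, 406 at P2 rep2, 387 at P3, 327 at P4, 367 at P7, 323 at P8, 271 at P16, 369 at P17 and 394 at P19. The R3 values of fzr were 199 at P2 rep1, 314 at P2 rep2, 340 at P5, 309 at P6, 276 at P7, 291 at P8, 295 at P16, 276 at P17 and 266 at P19. R3 P2 rep1 was the lowest of all arrays, and the late and early R7 arrays overlapped because P19 exceeded P3. The R7 means were 345 ± 64.8 in late and 402 ± 13.6 in early arrays, the most negative difference of the members in R7 (-0.24 ± 0.16, adjusted p = 0.333). In R3 the difference was 0.15 ± 0.18. The brightest of 3 fzy probe sets averaged 614 ± 53.5 in R7 late and 506 ± 37.5 in R7 early arrays, without overlap (0.28, adjusted p = 0.336). Of the other fzy probe sets, 1 rose above the floor on 1 array and 1 on none.

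twe encodes the Cdc25-type phosphatase known in the fly mainly for its role in meiosis. Its R7 intensities were 241 at P2 rep1, 201 at P2 rep2, 228 at P3, 200 at P4, 208 at P7, 198 at P8, 203 at P16, 214 at P17 and 244 at P19. In R3, twe measured 256 at P2 rep1, 164 at P2 rep2, 226 at P5, 213 at P6, 208 at P7, 241 at P8, 225 at P16, 229 at P17 and 209 at P19. The stages overlapped in both lines, and the R3 P2 replicates were the highest and the lowest of the 18 arrays. Late minus early was -0.02 in R7 and 0.11 in R3 (adjusted p = 0.968 in R7).

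The remaining members were not called between late and early passages in either line. aurB, the kinase of the chromosomal passenger complex that corrects faulty attachments, averaged 799 ± 138 in R7 late and 624 ± 76.0 in R7 early arrays (0.35, adjusted p = 0.152). Of its partner genes, borr had 0.22 in R7 and 0.27 in R3, and Incenp -0.07 in R7 and -0.13 in R3. pim, which encodes securin, the inhibitor of separase, averaged 598 ± 86.1 in R7 late and 477 ± 65.4 in R7 early arrays (0.33, adjusted p = 0.0792), without overlap. The separase partner gene thr had 0.12 in R7.

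In the cytokinesis group, tum, whose product is a subunit of centralspindlin, a complex of the spindle midzone, averaged 699 ± 107 in R7 late and 548 ± 21.6 in R7 early arrays, without overlap (0.34, adjusted p = 0.131). The anillin gene scra had 0.18 and feo, a bundler of midzone microtubules, -0.04. The condensin subunit genes SMC2, glu and barr, whose products compact chromosomes, had 0.05, 0.04 and -0.05. The late and early R7 arrays did not overlap for 12 members. Late was higher for 10 of these, mad2, Zw10, fzy, pim, Klp61F, tacc, tum, Nuf2, Spc105R and cid (32.3%, against 18.4% of all tested probe sets), and lower for Bub1 and msps (6.45%, against 23.1%). In R3 the stages were apart and higher in late for 0 members (background 4.55%) and lower for 2 (6.45%, background 9.51%).

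The intermediate passages were compared with both ends of each series. Between intermediate and early R7 arrays 1 of 31 members was called (3.23%, background 2.48%, with 1.23% higher and 1.25% lower), mad2, which averaged 806 ± 59.1 in intermediate and 609 ± 22.5 in early arrays (log2 0.40 ± 0.09 SE, limma adjusted p = 0.0364). The other high members of that comparison were CycB (0.48, adjusted p = 0.346) and scra (0.35, 0.529), and the low ones fzr (-0.22, 0.549), twe (-0.13, 0.687) and cal1 (-0.13, 0.673). The members' median was 0.20 with 26 of 31 positive, against 0.00 for all probe sets. Between late and intermediate R7 arrays, in turn, 0 members were called by limma (background 4.68%, with 2.02% higher and 2.66% lower) and 2 had an unadjusted p under 0.05. The largest differences were Klp61F (0.35, adjusted p = 0.234), mad2 (0.31, 0.0776) and cid (0.29, 0.534) on the high side and CycB (-0.46, 0.441), feo (-0.31, 0.427) and CycB3 (-0.27, 0.443) on the low side. The call of mad2 at the intermediate stage was lost in 10 of the 18 fits that left out 1 array and in 7 of the 13 alternatives, among them P4 counted as early or as intermediate.

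In R3, 0 members were called by limma between intermediate and early arrays (background 0%). At an unadjusted p under 0.05 there were 0 members, beside 730 of the 10200 probe sets. The highest differences were 0.29 for borr, 0.28 for CycB and 0.28 for fzr, and the lowest -0.11 for thr, -0.09 for msps and -0.07 for barr. Between late and intermediate R3 arrays 0 members were called by limma (background 0%). At an unadjusted p under 0.05 there was 1 member, beside 425 of the 10200 probe sets. Here the highest were Klp61F (0.12), cid (0.07) and Bub3 (0.05), and the lowest glu (-0.33, adjusted p = 0.915), CycB (-0.25) and scra (-0.24). The members' median was -0.10 with 6 of 31 positive, and the array labelled R3 P19 was the lowest R3 array for 16 of the 31.

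The lines were compared at each end of the series. Between R7 late and R3 late 1 of 31 members was called (3.23%, background 7.63%, with 5.27% higher and 2.35% lower), mad2, with 1003 ± 62.3 in R7 and 668 ± 37.5 in R3 (log2 0.59 ± 0.08 SE, limma adjusted p = 0.000858). Next came Spc105R (0.49, adjusted p = 0.140) and cid (0.47, 0.128), and lowest were Bub1 (-0.23, 0.217), msps (-0.22, 0.307) and feo (-0.17, 0.594). Between R7 early and R3 early 0 members were called by limma (background 1.07%, with 0.961% higher and 0.108% lower), and 1 had an unadjusted p under 0.05. That was fzr, at 402 ± 13.6 in R7 and 257 ± 81.2 in R3 (0.68 ± 0.18, adjusted p = 0.147). Without the arrays labelled R3 P2 rep2 and R3 P19 the fzr difference was 1.01 ± 0.18. The early R3 side was then P2 rep1 alone, the lowest fzr array of all. The other large early differences were 0.19 for borr and 0.14 for CycB3, and -0.42 for scra, -0.29 for rod and -0.19 for ncd.

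The late minus early change itself differed between the lines for 1 of 31 members (3.23%, background 2.91%, with 1.65% higher and 1.26% lower), mad2, whose change was larger in R7 by 0.68 ± 0.12 (limma adjusted p = 0.00982). This call was lost without R3 P2 rep2 (adjusted p = 0.0577), with P4 counted as intermediate (0.0511) and in a fit of the compared arrays alone (0.0567). It was kept without both R3 P2 rep2 and R3 P19 (0.50, 0.0441). For Spc105R the difference of changes was 0.59 (adjusted p = 0.301), for tacc 0.47 (0.139) and for Klp61F 0.39 (0.319). The lowest were -0.39 for fzr (0.438), -0.14 for msps and -0.14 for Bub1. That Klp61F and tacc were called in R7 and not in R3 is therefore not shown to be a difference between the lines.

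Levels of the mitotic genes also differed between arrays of 1 stage. The median of the 31 genes, as log2 difference from the mean of the line, was 0.04 at R7 P2 rep1, -0.09 at P2 rep2, -0.19 at P3, -0.25 at P4, 0.02 at P7, 0.12 at P8, 0.11 at P16, -0.06 at P17 and 0.26 at P19. R7 was lowest at P3 and P4, where 3 of 31 genes lay above their line mean on each array, and highest at P19, where 26 did, as at P8. P4 was the lowest R7 array for 13 genes, P3 for 7, and P19 the highest for 20. In R3 the median was -0.04 at P2 rep1, -0.01 at P2 rep2, 0.04 at P5, 0.10 at P6, -0.07 at P7, 0.13 at P8, 0.10 at P16, 0.05 at P17 and -0.20 at P19. There 30 of 31 genes lay above the line mean at P8 and 1 at P19. The median of all tested probe sets stayed between -0.04 and 0.03 on the same arrays.

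**Figure D3:**
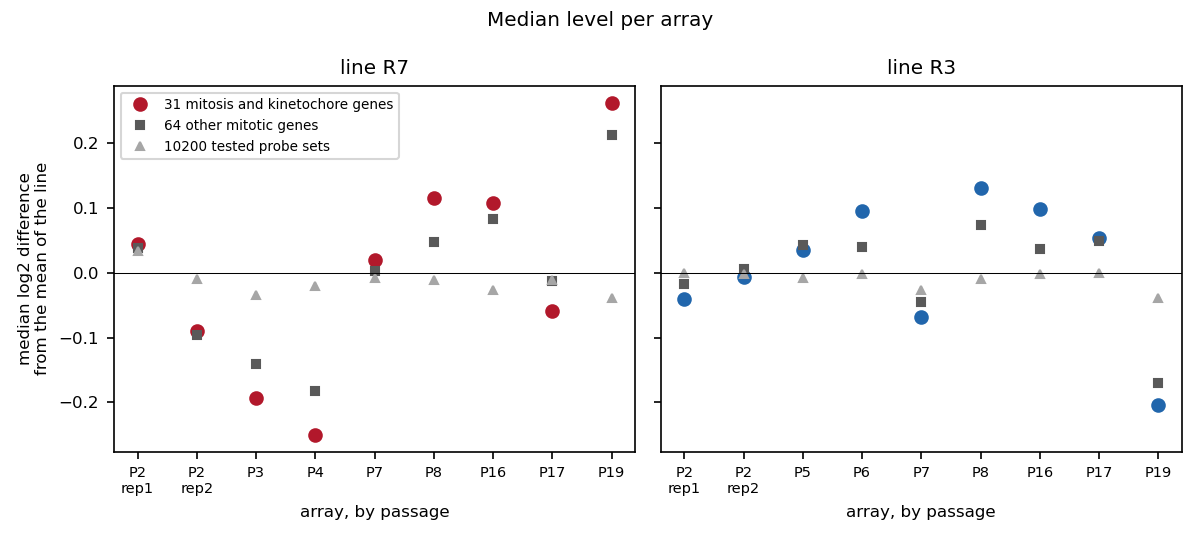
Median log2 difference from the mean of the line (vertical axis) on each array, ordered by passage, for R7 on the left and R3 on the right. Coloured circles are the 31 mitosis and kinetochore genes, dark squares 64 other mitotic genes and light triangles all tested probe sets; the first 2 sets dip together at R7 P3 and P4 and at R3 P19 and peak at R7 P19.

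The swings were small in size. The highest array exceeded the lowest 1.60-fold for the median member, from 1.35-fold for msps to 2.30-fold for cid, and 25 of 31 stayed under 2-fold over all 18 arrays. The SD over arrays after subtracting line means had a median of 0.18 (log2) for the members and 0.19 for all tested probe sets. These medians are not like for like. The members lay above the floor on all 18 arrays, while a tested probe set needed at least 2 and was set to the floor elsewhere.

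**Figure D4:**
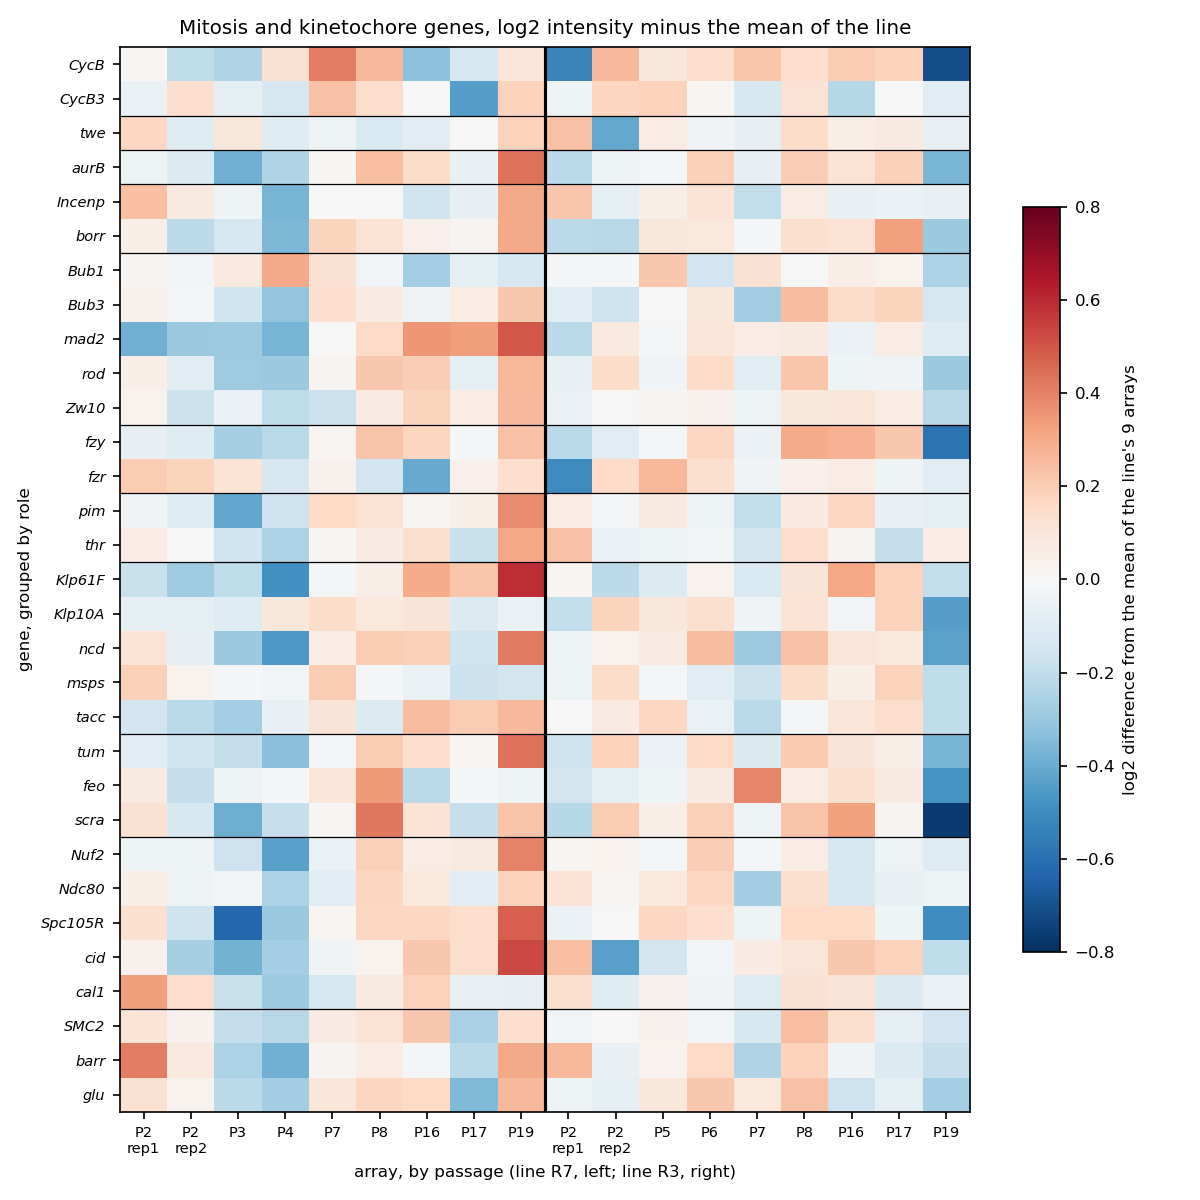
Log2 intensity of each gene minus the mean of its line, coloured from -0.8 (blue) to 0.8 (red), with genes in rows grouped by role and arrays in columns by passage, R7 left of the black line and R3 right of it. Most rows are blue at R7 P3 and P4 and at R3 P19 and red at R7 P19; Bub1 is red at R7 P4.

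Over the 18 arrays, with each line's mean subtracted, the mean pairwise Pearson correlation of the 31 members was 0.39, against 0.26 among the 64 other mitotic genes and 0.01 among all tested probe sets. The arrays share scaling and, within a line, 1 culture, so this is a description. It was 0.35 without R3 P2 rep2 and R3 P19. The genes that followed the rest most closely were ncd (mean r with the other members 0.61), aurB (0.57), rod (0.57), Spc105R (0.56) and tum (0.56), which act at different steps from checkpoint to cytokinesis. The closest pairs were rod with ncd and aurB with fzy (r = 0.92 each), and Incenp with barr reached 0.90. The genes fzr (0.08), twe (0.16) and msps (0.17) followed the others least among those with a positive mean. Bub1 was the exception, with a mean r of -0.16, and its lowest pair was with Nuf2 (-0.57).

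**Figure D5:**
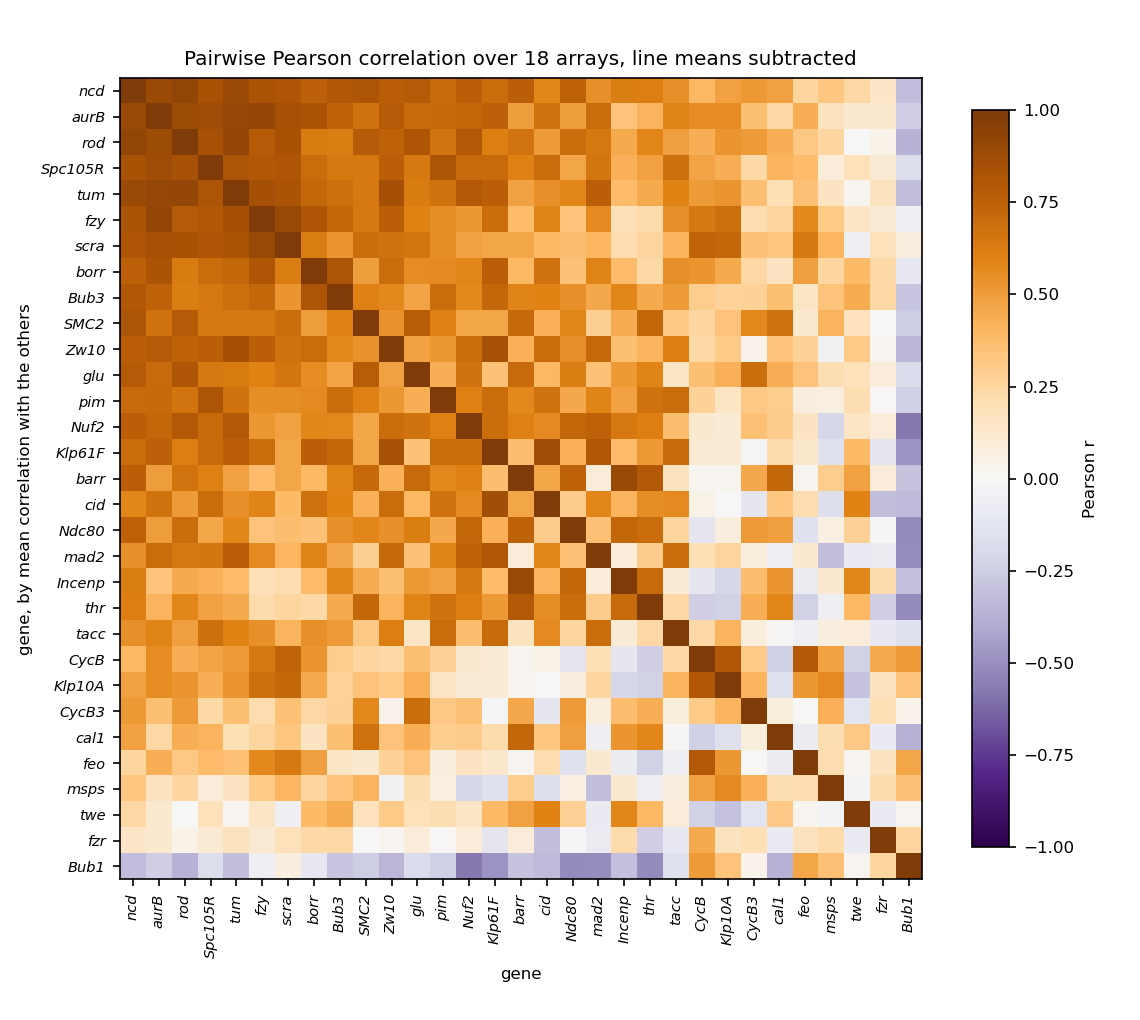
Pairwise Pearson correlation of the 31 genes over 18 arrays after subtracting line means, from -1 (purple) to 1 (brown), with genes on both axes in order of their mean correlation with the others. A block led by ncd, aurB and rod fills the upper left, and Bub1, in the last row, is mostly purple.

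The wider pathway was read from a list of 88 other mitotic genes, of which 68 had a probe set and 64 were tested. In late against early R7 arrays 14 of the 64 rose and 0 fell (21.9% called), beside the background of 8.75% higher and 11.2% lower, and their median was 0.16. The rises named here are those with the largest change. msd1, msd5 and wac, subunits of the augmin complex that seeds microtubules inside the spindle, rose by 1.04 ± 0.19 (limma adjusted p = 0.00341), 0.56 ± 0.18 (0.0473) and 0.60 ± 0.12 (0.00538). chb, a protein of microtubule plus ends, rose by 0.77 ± 0.16 (0.00606), and the kinesin gene Klp67A by 0.69 ± 0.16 (0.00964). Cks85A, which encodes a small Cdk-binding protein, rose by 0.61 ± 0.08 (0.000474), to 715 ± 10.6 in R7 late against 470 ± 4.67 in R7 early arrays. The number called higher ranged from 8 to 22 over the alternative settings and the fits that left out 1 array, and the background moved with it. It was 22 with equal array medians, where 17.1% of all probe sets were called higher. Among the fits with 8 were a floor of 16 (5.78% higher), no filter (3.3%) and the fit without R7 P19 (4.87%).

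In R3 0 of these 64 genes were called by limma between late and early arrays and 0 had an unadjusted p under 0.05. Without R3 P2 rep2 and R3 P19, chb and the kinetochore gene Kmn1 were called higher there, 2 of 64 (background 10.1%), and between intermediate and early R3 arrays 2 were higher and 1 lower (background 9.54%). Between late and intermediate R7 arrays 1 of the 64 was called (1.56%, background 4.68%, with 2.02% higher), Cks85A (0.42 ± 0.09, limma adjusted p = 0.0219). That call was lost without R7 P7 (adjusted p = 0.347), R7 P17 (0.0532) or R7 P19 (0.0776), with equal array medians (0.0711) and in a fit of the compared arrays alone (0.118), while 4 genes were called with P4 as intermediate. In late passages 6 of the 64 were higher in R7 than in R3 (9.38%, background 5.27% higher), Cks85A (0.62), Cap-H2 of a second condensin (0.58), the centriole gene Sas-4 (0.51), the phosphatase inhibitor gene endos (0.34), the kinetochore gene Mis12 (0.34) and Cdc27 (0.31). Without R7 P19 there were 2, Cdc27 and Cks85A, in a fit of the compared arrays alone 1, Cks85A, and without both R3 P2 rep2 and R3 P19 there were 5 higher and 2 lower. For Cdc27, a subunit of the anaphase-promoting complex, the late minus early change was larger in R7 than in R3 by 0.46 ± 0.09 (limma adjusted p = 0.0172). It was 1 of 64 called in that comparison (1.56%, background 2.91%, with 1.65% higher). This call was lost without R3 P2 rep2 (adjusted p = 0.0973), without R7 P2 rep2 (0.0524), without both R3 P2 rep2 and R3 P19 (0.0714) and with the compared arrays alone (0.0822).

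Markers of other cell types moved over the same passages in R7. Beside the counts below, 8.75% of all tested probe sets were called higher in late than in early R7 arrays and 11.2% lower. Of 12 tested haemocyte markers 6 were lower in late than in early R7 arrays (He, NimC1, Hml, Pxn, Ppn and PPO2), and the summed intensity of the 13 listed genes was 2683 to 5105 in late and 5482 to 16385 in early arrays. Of 10 neuroblast markers 7 were lower and 1 higher, with sums of 1283 to 1639 in R7 late and 1621 to 1793 in R7 early arrays and 4 to 5 above the floor in late against 10 in early. Among them wor, dpn, pros and sna lay above the floor on 3 arrays only, those of R7 early. They entered the test only through the group where they are high, so a call of them as lower carries no weight. Fat body markers summed to 60.1 to 70.6 in R7 late, where 0 of 5 lay above the floor, and to 305 to 1938 in R7 early arrays. Of the adult muscle precursor markers 1 of 6 was higher and 1 lower, with sums of 5810 to 7241 in late and 5098 to 6036 in early arrays. Differentiated muscle markers summed to 405 to 537 in R7 late and 366 to 597 in R7 early arrays, and germline markers to 216 to 251 in R7 late and 242 to 300 in R7 early arrays. In R3 0 of these markers were called by limma between late and early (background 0%). Haemocyte sums there were 5857 to 8216 in late and 6623 to 7220 in early arrays. Fat body sums in R3 were 590 at P2 rep1 and 523 at P19, against 76.5 to 115 on the other R3 arrays, P2 rep2 included. Marker calls were not counted without R3 P2 rep2 and R3 P19, so the 0 calls do not show that these markers stayed level in R3. The part of such cell types in the mitotic differences was not tested.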

How the data were processed

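Biotin-labelled cRNA was made with the GeneChip 3' IVT Express Kit, per the labels' protocols. The deposited table holds 1 intensity per probe set and array on a linear scale, summarised and scaled by the authors; their method is not given in the sources used here. Of 18952 rows, 183 controls were left out. Gene symbols came from the platform annotation, updated through Entrez numbers (13647 probe sets with 1 symbol, 402 with several, 4720 with none). Intensities below 32 were set to 32 before taking log2, and the 10200 probe sets above 32 on at least 2 arrays were tested.

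Linear models were fitted in R 4.3.3 using the lmFit and eBayes functions of limma 3.58.1. All 7 groups entered 1 model, which left 11 residual degrees of freedom, and slopes on log2 passage came from another model. Benjamini-Hochberg adjustment ran over all tested probe sets, with calls at an adjusted p under 0.05. In tests on simulated data for R7 late against early, 58.2% of changes of 1.5-fold and 82.1% of 2-fold were called. The simulation changed 67 of 10200 probe sets at each of these sizes, all among the brighter ones, with independent noise on each array. Its setting differs from the real arrays, so these shares do not give the power for the members. Values of every array are given for called members and for central members of each role, and the 3 highest and lowest members are named per comparison. Members and lists were chosen with earlier results of these data known. The replicate numbers of the P2 arrays do not pair the lines. Alternatives were other scalings, floors and filters, the prior, 1 probe set per gene, the stage of P4, the arrays in the fit, linear passage, a replicate block, and arrays left out. No sequences are shown.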

Additional observations from a re-analysis of the deposited data

Results flagged for a closer look

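Each group of 4 to 10 arrays was searched for an array far from the rest, which applied only to the 4 intermediate R3 arrays. Of 31 gene and group pairs examined 1 stood out, and chance gives about 1 in 20. Spc105R had an intensity of 443.58 at R3 P7, against 500.36 to 511.75 on the other 3 arrays.

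Late minus early changes were larger in R7 than in R3 for mad2, by 0.68 (log2), and for Cdc27, by 0.46 (log2), by a limma test of the difference itself. These were 1 of 31 members (3.23%) and 1 of 64 other mitotic genes (1.56%), beside 2.91% of all tested probe sets. Neither call held throughout: that of mad2 was lost without R3 P2 rep2, with P4 counted as intermediate and with the compared arrays alone, and that of Cdc27 without R3 P2 rep2, without R7 P2 rep2, without both R3 P2 rep2 and R3 P19 and with the compared arrays alone.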

How the results depend on the processing

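The calls of mad2, Klp61F and tacc between late and early R7 arrays held in all 13 alternatives and all 18 fits that left out 1 array, with adjusted p up to 0.0036, 0.0416 and 0.0444. The number of members called there was 3, and 8 under quantile normalization, 8 with equal array medians, 5 with P4 as early, 7 without both R3 P2 rep2 and R3 P19, and 3 to 6 with 1 array left out. The share of all R7 calls that were higher was 43.9%, 64% under quantile normalization and 71.4% with equal medians. Of all probe sets 19.9% were called there, 24% under quantile normalization, 6.56% with no filter, 25.7% without R3 P19 and 9.78% without R7 P19. Counts of members under different settings are therefore not like for like, in this or the other comparisons. For R7 intermediate minus early the count was 1, and 0 with equal medians, a floor of 16, no filter, without the 30% dimmest, P4 as early or as intermediate, and the compared arrays alone. It was 2 without both R3 arrays and 0 to 1 with 1 array left out. For R7 late minus intermediate it was 0, then 2 with P4 as intermediate, 2 without both R3 arrays, and 0 to 1 with 1 left out. The difference of changes between the lines was called for 1 member, for 0 with P4 as intermediate or the compared arrays alone, and for 0 to 1 with 1 left out. R7 late minus R3 late gave 1, 2 without both R3 arrays, and 1 to 2 with 1 left out (glu without R7 P17). R7 early minus R3 early gave 0, 1 without both R3 arrays, and 0 to 1 with 1 left out. R3 late minus early and R3 intermediate minus early each gave 0, and 1 without both R3 arrays. The R7 slope gave 4, then 10 under quantile normalization, 9 with equal medians, 8 without both R3 arrays, and 3 to 9 with 1 left out (9 without R3 P19). The correlation among members was 0.33 to 0.41 with 1 array left out.

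The median level per array moved under quantile normalization to -0.0906 at R3 P2 rep1, -0.0374 at R3 P2 rep2 and -0.10 at R7 P2 rep1. With equal medians it moved to -0.15 at R3 P2 rep1, 0.0876 at R3 P2 rep2, -0.43 at R3 P19, -0.23 at R7 P2 rep2, -0.38 at R7 P3 and 0.46 at R7 P19. The causes were not tested. With a replicate block for the P2 arrays labelled rep2, R7 late minus early gave 4 members and the R7 slope 4, and no named call was lost. P2 replicate numbers are all that the lines share, and nothing in the labels says that they pair samples.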
